A study of Mus musculus with 8 samples.

Results

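Genes of glycolysis and of the response to low oxygen were examined in B16F1 mouse melanomas across 4 groups of tumours. The set held 39 listed genes, 21 of them for glucose uptake, glycolysis and lactate export and 18 other targets or regulators of the hypoxia-inducible factors (HIF). A gene was read through the probe sets that the array annotation maps to it alone, and the probe set with the highest mean log2 signal stood for it. This gave 36 of the 18194 genes on the array, 19 for glycolysis and 17 others, and all 36 were bright enough to be tested. Gpi1, Eno1 and Bnip3l had no probe set naming them alone and were not analysed here.

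B16F1 cells, a line derived from a melanoma of C57BL/6 mice, were grown under the skin of the right hind limb in C57BL/6-NCr wild-type hosts (WT) or in TNFR 1, 2 -/- hosts (TNFR KO). The TNFR KO hosts carried Tnfrsf1a[tm1Imx] and Tnfrsf1b[tm1Imx], targeted alleles of both TNF receptor genes, and their breeding pairs were of a B6;129S stock, although the labels give C57BL/6 as their strain. The deletion was in host cells only, since the B16F1 cells were the same in all groups. Tumours were left untreated or received a single X-ray dose of 20 Gy to the tumour-bearing limb, and were taken 5 h after treatment. The mice were 8 to 12 weeks old at the start, 5 to 7 of each host were injected, and the tumours had reached 268 to 478 mm3. Total RNA of the whole tumours of a group went into 1 pool, which was read on 2 Affymetrix arrays. The 4 groups are thus 4 pools with technical duplicates (n = 2 arrays), and no value below holds the spread between animals. The series asks how host tissue that cannot respond to TNF changes the expression profile of irradiated melanoma. In whole tumours, fewer cells of a type and less RNA per cell cannot be told apart.

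HIF is a transcription factor made of an oxygen-regulated alpha subunit and a constant beta subunit. With oxygen, prolyl hydroxylases mark the alpha subunit for destruction through the von Hippel-Lindau ubiquitin ligase, and without it HIF binds promoters and enhancers of genes for glucose uptake, glycolysis, lactate export, pH control, collagen modification and mitophagy. Solid tumours often hold poorly perfused regions in which these genes are expressed, and many tumours, melanoma among them, also run glycolysis in the presence of oxygen.

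All values are MAS5 signal, a linear intensity in arbitrary units, scaled by the authors to the same trimmed mean of 500.0 on every array. Duplicate arrays correlated at 0.975 to 0.981 over probe sets, and arrays of different pools at 0.955 to 0.972. Tnfrsf1a, which encodes TNF receptor 1, read 2702 ± 70.3 and 3874 ± 82.7 in WT untreated and irradiated tumours and 3409 ± 184 and 4196 ± 203 in the TNFR KO tumours (mean ± SD, n = 2 arrays). The gene of TNF receptor 2, Tnfrsf1b, gave 191 ± 47.9, 416 ± 50.3, 127 ± 0.212 and 128 ± 27.6, again WT first. The array does not settle the host genotype, since tumour cells in TNFR KO hosts keep both genes and the place of the probes in the targeted alleles was not examined. Poly-A spike-in controls, added before labelling, averaged 4358 and 4418 on the WT untreated arrays and 8480 and 8706 on the WT irradiated arrays. On the TNFR KO arrays they averaged 8.44 to 10.5. A host difference can therefore not be separated from a difference in how the targets were prepared. The irradiated over untreated ratio of these controls was 1.96 in WT and 1.07 in TNFR KO hosts. The WT pools thus differed in these controls too. The part of target preparation in the radiation differences of WT hosts was not tested. The 10 melanocyte markers were all above the detection filter in every pool, with summed signals of 191964 to 220318, so the tissue matched its label.

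The genes were abundantly expressed. Mean signals over the 8 arrays ran from 201 for Vldlr, a lipoprotein receptor, to 34129 for Gapdh, which ranked 6 of the 11344 genes tested, and the median was 3655 against 667 for all tested genes. The enzymes from aldolase to lactate dehydrogenase were the brightest: Aldoa (29397), Tpi1 (31727), Pgk1 (28346), Pgam1 (16525), Pkm (22439) and Ldha (29858). Hk2 (5082) and Hk1 (3263), the hexokinases that trap glucose, and Pfkl (12615), a phosphofructokinase subunit, lay lower. The bifunctional enzymes that make and remove the phosphofructokinase activator, Pfkfb3 (228) and Pfkfb4 (368), were the dimmest of the glycolysis genes. Signals of different genes depend on their probes, so these figures place genes on the array's scale and are no measure of relative RNA amount. Many glycolytic genes also have processed pseudogenes or close copies in the genome, and how far their probes read those was not tested. Gapdh was read through the array's own Gapdh control probe sets.

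**Figure D1:**
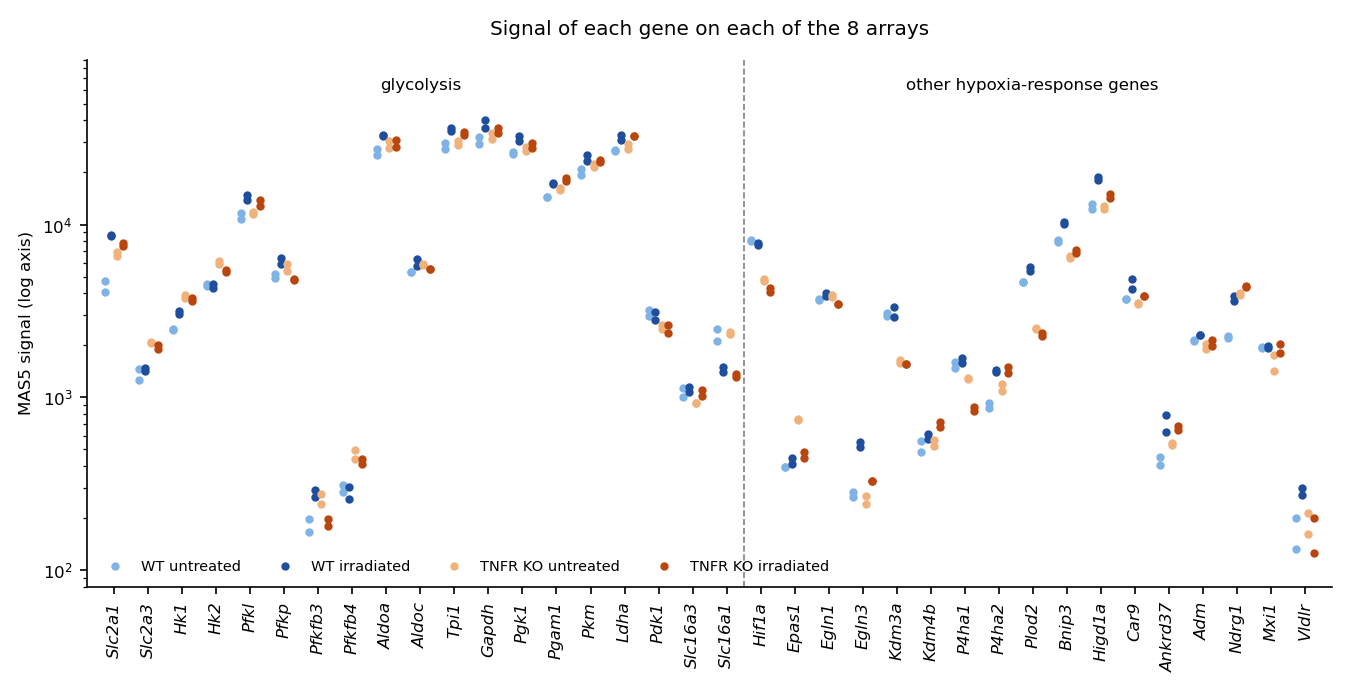
MAS5 signal (log axis) of each of the 36 genes on each of the 8 arrays, coloured by group, with glycolysis genes left and other hypoxia-response genes right of the dashed line. Pools lie close together for the bright glycolytic enzymes, while Hif1a, Kdm3a and Plod2 separate WT from TNFR KO tumours.

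The pools differed little for most of these genes. The ratio of the highest to the lowest pool had a median of 1.42 over the 36 genes (range 1.14 to 2.40), against 1.55 over all tested genes. It reached 2-fold for 3 of 36 genes (8.33%), against 22.0% of all tested genes. The 36 genes were brighter, with a median signal of 3655 against 667, and the ratios were not compared at matched signal. The median ratio was 1.25 for the glycolysis genes and 1.65 for the others. The highest pool was WT irradiated for 23 of the 36 genes and the lowest was WT untreated for 18. The same count over all tested genes was not made. The array's actin control had the same highest and lowest pools. It read 37810 and 35150 on the WT irradiated arrays and 28410 and 30060 on the WT untreated arrays.

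HIF binds a 5-base core, written here as its variants ACGTG and GCGTG. RefSeq promoter windows of build GRCm38.p6, holding 250 bases before to 50 bases after a gene start, were at hand for 33 of the 39 listed genes, 48 windows in all. ACGTG on either strand was found in 26 of the 48 windows (54.2%), against 22.9% of the windows of all genes on the array and 19.6% of all promoter windows. GCGTG was found in 52.1%, 43.3% and 32.4% of these windows. The listed genes' windows also held more CG dinucleotides, with a median of 23, against 16 for genes on the array and 7 for all windows, and both cores contain CG. CACGTG, which reads ACGTG on both strands, was found in 10.4%, 8.7% and 7.2%.

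Windows of 6 genes that the results turn on are shown in 5′ to 3′ direction along the gene, with every ACGTG or GCGTG of either strand (CACGT or CACGC on the strand shown) in capitals. Hif1a and P4ha1 differed between hosts, Slc2a1 and Egln3 had the largest differences after irradiation in WT hosts, Slc16a1 had the lowest values after irradiation in both hosts, and Ldha stands for the bright enzymes. Of these genes only Ldha had a further window, and its window with the most ACGTG is shown. A match describes letters in the window and is no evidence of binding in these tumours.
Hif1a, chr12:73907617-73907916, plus strand: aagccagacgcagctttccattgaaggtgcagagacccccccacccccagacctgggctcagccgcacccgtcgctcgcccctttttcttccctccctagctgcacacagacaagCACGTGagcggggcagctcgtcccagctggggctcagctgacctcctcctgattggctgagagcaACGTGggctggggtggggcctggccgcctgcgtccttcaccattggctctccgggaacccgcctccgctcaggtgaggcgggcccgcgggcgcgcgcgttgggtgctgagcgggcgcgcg
P4ha1, chr10:59323046-59323345, plus strand: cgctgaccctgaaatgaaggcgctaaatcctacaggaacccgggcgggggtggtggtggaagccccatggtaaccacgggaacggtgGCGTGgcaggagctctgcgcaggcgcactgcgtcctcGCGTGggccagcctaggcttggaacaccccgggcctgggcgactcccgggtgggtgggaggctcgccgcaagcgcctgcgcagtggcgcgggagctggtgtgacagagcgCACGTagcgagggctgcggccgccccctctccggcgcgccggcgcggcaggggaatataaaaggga
Slc2a1, chr4:119108495-119108794, plus strand: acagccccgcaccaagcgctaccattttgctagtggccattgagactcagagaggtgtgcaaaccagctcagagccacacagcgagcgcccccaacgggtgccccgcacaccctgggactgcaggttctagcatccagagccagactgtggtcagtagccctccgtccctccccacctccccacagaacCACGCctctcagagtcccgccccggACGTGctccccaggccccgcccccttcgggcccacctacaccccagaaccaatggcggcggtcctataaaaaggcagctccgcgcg
Egln3, chr12:54203825-54204124, minus strand: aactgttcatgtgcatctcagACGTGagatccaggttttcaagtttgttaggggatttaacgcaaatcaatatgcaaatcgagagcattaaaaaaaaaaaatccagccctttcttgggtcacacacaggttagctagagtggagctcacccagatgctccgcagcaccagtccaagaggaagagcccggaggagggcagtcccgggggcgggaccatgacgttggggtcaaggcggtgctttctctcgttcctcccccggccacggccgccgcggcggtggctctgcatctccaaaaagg
Slc16a1, chr3:104638414-104638713, plus strand: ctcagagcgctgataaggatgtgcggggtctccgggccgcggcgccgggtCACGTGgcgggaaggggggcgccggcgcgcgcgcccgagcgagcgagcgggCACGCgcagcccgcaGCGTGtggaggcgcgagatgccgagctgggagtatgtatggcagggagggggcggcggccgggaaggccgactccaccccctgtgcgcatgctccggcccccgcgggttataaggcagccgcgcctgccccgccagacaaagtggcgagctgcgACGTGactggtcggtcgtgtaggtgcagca
Ldha, chr7:46845554-46845853, plus strand: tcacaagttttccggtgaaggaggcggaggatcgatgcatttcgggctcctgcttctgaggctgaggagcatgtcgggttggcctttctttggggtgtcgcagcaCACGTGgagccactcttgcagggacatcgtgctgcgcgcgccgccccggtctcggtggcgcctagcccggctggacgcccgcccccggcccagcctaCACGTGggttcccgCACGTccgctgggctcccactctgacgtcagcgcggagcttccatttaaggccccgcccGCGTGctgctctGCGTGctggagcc
Ldha held ACGTG at 5 positions counted over both strands, Slc16a1 and Hif1a at 3 each, and P4ha1, Slc2a1 and Egln3 at 1 each. The window of Ldha that is not shown held 0 ACGTG and 2 GCGTG. The 3 windows of Kdm3a, which also differed between hosts, held no ACGTG, and 1 of them held a GCGTG. The window of Pfkfb4, another gene that differed between hosts, held 0 ACGTG and 1 GCGTG. Plod2 and Slc2a3, which differed too, had no window.

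The first comparison asked whether the genes differed between TNFR KO and WT hosts over both treatments. Hif1a, the alpha subunit of HIF-1, Kdm3a, a hypoxia-induced histone demethylase, and P4ha1 and Plod2, enzymes that hydroxylate collagen, were lower in tumours of TNFR KO hosts. Slc2a3, the glucose transporter GLUT3, and Pfkfb4 were higher. The other 30 genes, among them every member read from aldolase to lactate dehydrogenase (Eno1 was not read), did not pass the test. The 6 genes that passed are 16.7% of 36, against 30.9% of all 11344 tested genes (12.0% higher and 18.9% lower). Leaving out single arrays moved the all-gene counts from 1363 higher and 2140 lower to 500 to 985 higher and 1534 to 1922 lower. The test was limma on the 4 pool means with host and treatment as additive terms and a Benjamini-Hochberg adjusted p under 0.05. Its error joins 1 residual degree of freedom, the disagreement of the hosts on the effect of radiation, with 9.51 prior degrees of freedom. The prior is shared by all tested genes, so the standard errors of this test rest largely on it. They hold no spread between replicate pools.

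Plod2, the lysyl hydroxylase of collagen telopeptides, differed most. Its signal was 4655 and 4625 on the WT untreated arrays, 5711 and 5405 on the WT irradiated, 2475 and 2506 on the TNFR KO untreated and 2264 and 2362 on the TNFR KO irradiated arrays. Every TNFR KO array was below every WT array, and the 2 hosts did not overlap. The log2 difference was -1.08 ± 0.17 (SE), a ratio of 2.11, with an adjusted p of 0.00128 in limma. A second probe set with a mean signal of 1844 gave -0.77.

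Hif1a read 8065 and 8171 in WT untreated, 7863 and 7574 in WT irradiated, 4686 and 4857 in TNFR KO untreated and 4044 and 4287 in TNFR KO irradiated tumours. All 4 TNFR KO arrays were below all 4 WT arrays, and the 2 treatments were close within each host. The log2 difference between hosts was -0.83 ± 0.16 (SE), a ratio of 1.77 (limma, adjusted p 0.00392). Its other probe sets of tested brightness, with mean signals of 1181 and 249, gave -1.05 and -1.03. Epas1, the alpha subunit of HIF-2, behaved otherwise, with 397 and 398 in WT untreated, 413 and 449 in WT irradiated, 748 and 743 in TNFR KO untreated and 449 and 484 in TNFR KO irradiated tumours. Its host difference did not pass (0.50 ± 0.20, limma adjusted p 0.0829), and the irradiated pools overlapped. A dim second probe set of Epas1 (mean signal 82.0) gave 0.77. It read 30.9 to 75.9 on the WT and 90.3 to 133.0 on the TNFR KO arrays, without overlap. Epas1 passed as higher with the mean of probe sets (0.63), a pseudocount of 64, a filter at the 75th percentile, an intensity trend or a replicate block. It did not pass under the other scalings.

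Kdm3a read 3092 and 2940.2 in WT untreated, 3347 and 2929 in WT irradiated, 1589 and 1640.4 in TNFR KO untreated and 1569 and 1568 in TNFR KO irradiated tumours. The hosts did not overlap, at a log2 difference of -0.94 ± 0.16 and a ratio of 1.92 (limma, adjusted p 0.00191). Kdm4b, another HIF-induced histone demethylase, read 486 to 720 over the 8 arrays and did not pass (0.14).

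P4ha1, the catalytic subunit of collagen prolyl 4-hydroxylase, read 1602 and 1474 in WT untreated, 1696 and 1587 in WT irradiated, 1304 and 1279 in TNFR KO untreated and 876 and 839.9 in TNFR KO irradiated tumours. The TNFR KO irradiated pool was the lowest, and the TNFR KO untreated pool lay just below the WT pools. The log2 difference was -0.59 ± 0.19, a ratio of 1.50 (limma, adjusted p 0.0402), and a second probe set gave -0.72. P4ha2, its isoenzyme, gave 0.18 and did not pass.

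Slc2a3 read 1466 and 1259 in WT untreated, 1472 and 1429.9 in WT irradiated, 2055 and 2097 in TNFR KO untreated and 2010.2 and 1915 in TNFR KO irradiated tumours. The TNFR KO arrays were all higher, by 0.52 ± 0.16 on the log2 scale, a ratio of 1.43 (limma, adjusted p 0.0344), and a second probe set gave 0.63. Pfkfb4 read 311 and 283 in WT untreated, 304 and 259 in WT irradiated, 440.3 and 494 in TNFR KO untreated and 440.0 and 413 in TNFR KO irradiated tumours. Its log2 difference was 0.60 ± 0.16, a ratio of 1.52 (limma, adjusted p 0.0178), from a single probe set.

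These calls were not equally firm. Those of Slc2a3 and P4ha1 were lost without any 1 of the 8 arrays, with adjusted p between 0.0556 and 0.0756 for Slc2a3 and between 0.0604 and 0.130 for P4ha1 in limma, while the other 4 calls were kept each time. No gene at all passed when the 18194 genes were tested with no filter on low signal.

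**Figure D2:**
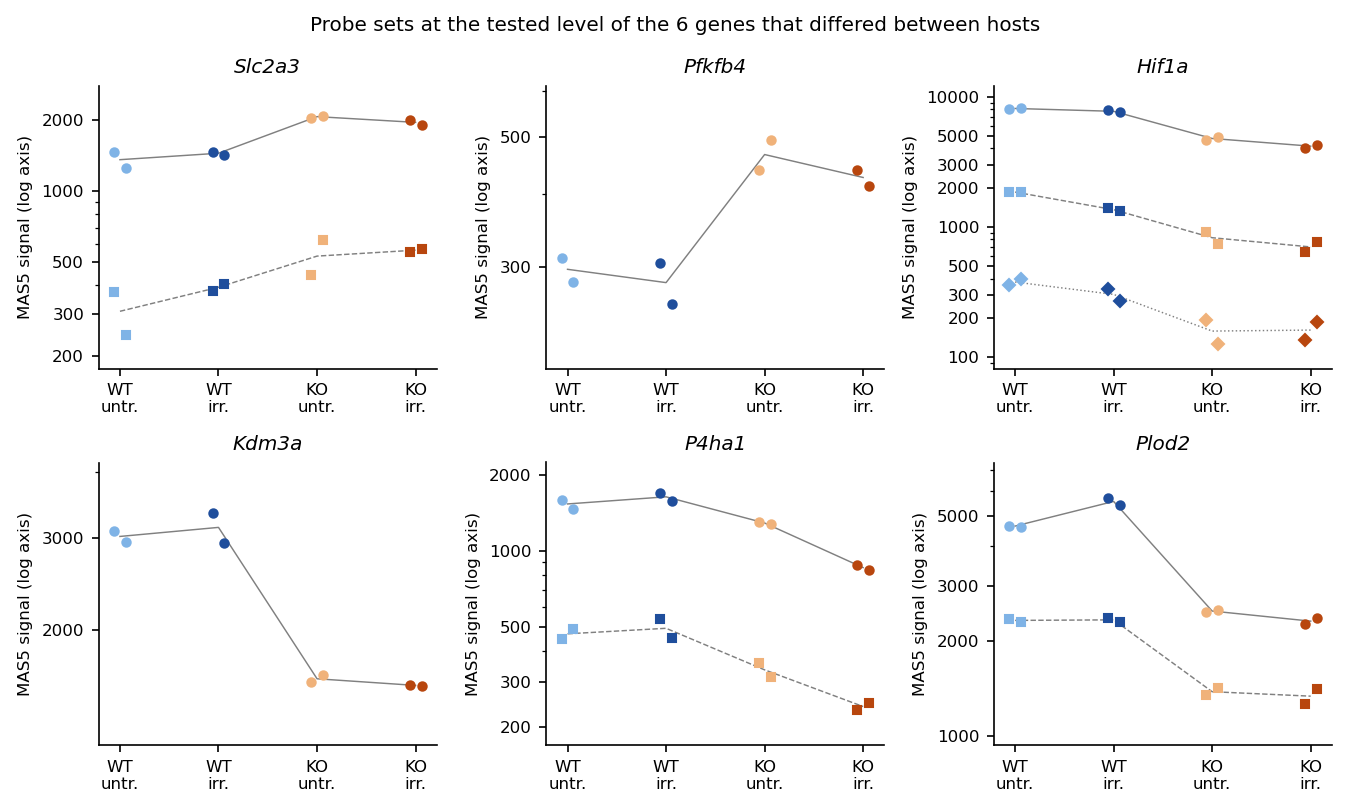
MAS5 signal (log axis) of every probe set of tested brightness for the 6 genes that differed between hosts, on 2 arrays per pool, with lines joining pool means and marker shapes separating probe sets. All probe sets of a gene lie on the same side in TNFR KO as against WT tumours.

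Among the other roles, the hexokinases were higher in TNFR KO tumours without passing the test. Hk2 read 4546 and 4437 in WT untreated, 4282 and 4528 in WT irradiated, 5918 and 6140.2 in TNFR KO untreated and 5341 and 5468 in TNFR KO irradiated tumours, a log2 difference of 0.36 ± 0.16 (limma, adjusted p 0.114). Hk1 gave 0.44 ± 0.17 (limma, adjusted p 0.0758), and its second probe set 0.55. The arrays of the hosts did not overlap for either gene. Ndrg1, a stress-induced gene of uncertain function, was also higher without passing, at 0.53 ± 0.18 (limma, adjusted p 0.0524). Pdk1, a kinase of pyruvate dehydrogenase, was lower without passing, at -0.26. Its other probe sets of tested brightness, with mean signals of 1692 and 438, gave -0.57 and -0.71. A further one below the filter (50.1) gave 0.94. The arrays of the hosts did not overlap for 5 genes that were higher and 6 that were lower in TNFR KO tumours, 13.9% and 16.7% of 36, against 22.5% and 21.7% of all tested genes. Gapdh, the brightest gene of the later stage, gave -0.02 ± 0.16, and Ldha 0.05 ± 0.16, both smaller than their standard error.

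Within single treatments the comparison is of 1 pool against 1 pool. Limma was run on the 8 arrays, a call needed an adjusted p under 0.05 and a 2-fold difference, and the error holds only the spread of duplicate arrays. In untreated tumours 0 of 36 genes passed (2.06% of all tested genes were higher and 6.25% lower in TNFR KO tumours). An unadjusted p under 0.05 was reached by 18 of 36 genes, and by 6445 of all 11344 tested genes. The largest log2 differences were 0.88 for Epas1, 0.82 for Ndrg1, 0.64 for Hk1, 0.63 for Pfkfb4, 0.62 for Slc2a1 and 0.61 for Slc2a3 among those above 0, and -0.89 for both Plod2 and Kdm3a and -0.76 for Hif1a among those below it. In irradiated tumours only Plod2 passed, at -1.26 ± 0.06, a ratio of 2.39 (limma, adjusted p 9.44e-05). That is 1 of 36 genes, against 7.43% of all tested genes lower and 0.793% higher. Kdm3a stood just under the 2-fold limit at -0.99, and passed without the second WT irradiated array at -1.09. Vldlr, at -0.77 with a wide error, passed without the second TNFR KO irradiated array at -1.08. P4ha1 gave -0.92 and Hif1a -0.89 there.

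With no fold threshold, 9 genes were higher and 5 lower in TNFR KO untreated tumours, and 5 were higher and 12 lower in TNFR KO irradiated tumours. These are 25.0% and 13.9%, then 13.9% and 33.3% of 36, against 26.4% and 23.8%, then 28.4% and 27.3% of all tested genes. Bnip3, a mitophagy receptor, Hif1a, Kdm3a, P4ha1 and Plod2 were lower under both treatments by this rule, and Slc2a3, Hk1, Hk2, Pfkfb4 and Ndrg1 were higher under both.

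**Figure D3:**
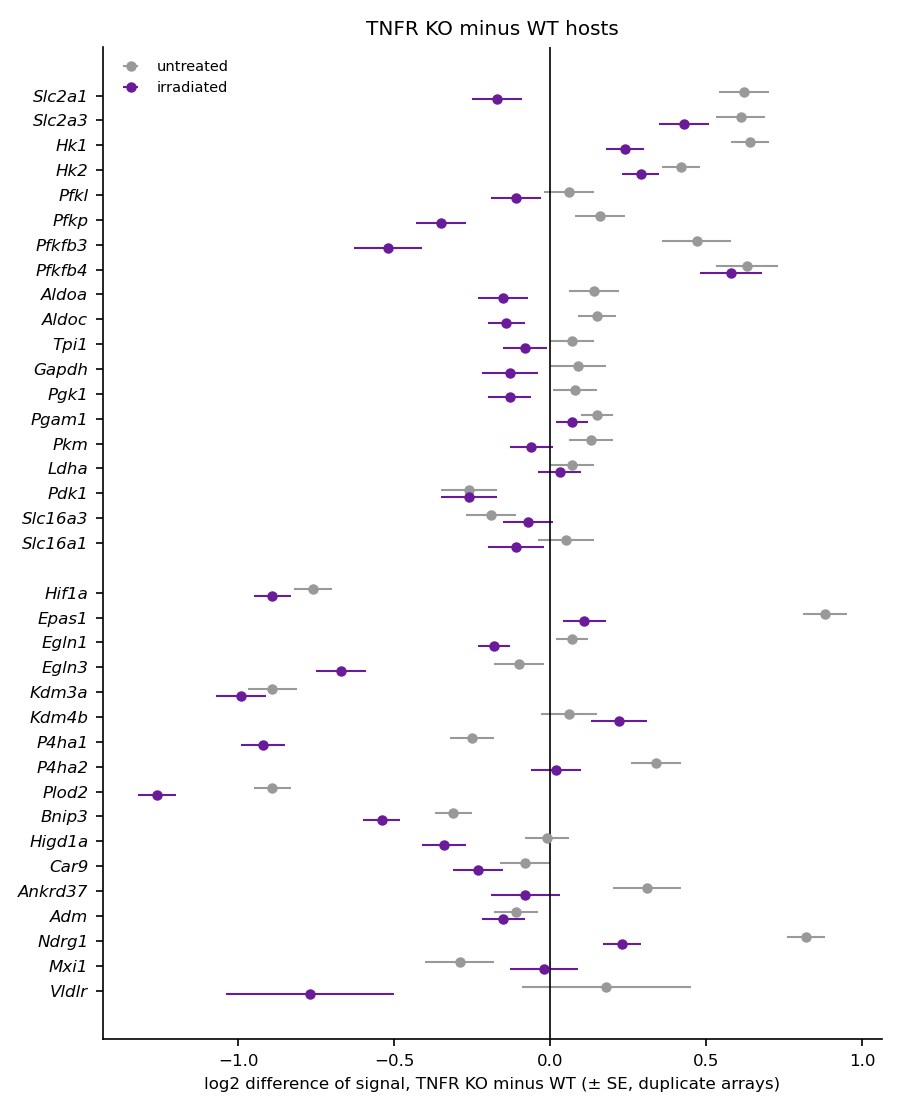
Log2 difference of signal between TNFR KO and WT hosts for each gene, with the standard error from duplicate arrays, in untreated (grey) and irradiated (purple) tumours. Hif1a, Kdm3a, P4ha1 and Plod2 lie left of 0 and Slc2a3, Hk1, Hk2 and Pfkfb4 right of it in both, while Slc2a1, Pfkfb3 and Epas1 stand further to the right in untreated tumours.

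Markers of host cells differed between the hosts beside these genes. The summed signal of the 12 fibroblast markers read on the array was 9972 and 13502 in WT and 23828 and 17739 in TNFR KO tumours (untreated, irradiated), with 7 of 11 tested higher, 1 lower and 1 below the filter in every pool. Of 13 tested endothelial markers, 7 were higher, with sums of 3516 and 4272 in WT and 6024 and 5177 in TNFR KO tumours. Of 9 tested skeletal muscle markers, 7 were lower, with sums of 4558 and 1676 in WT and 2137 and 1070 in TNFR KO tumours. Of 10 keratinocyte markers read on the array 5 were tested, and all 5 were higher. The sums of the 10 were 530 and 708 in WT and 3408 and 974 in TNFR KO tumours. Among the 10, 2 were below the filter in every pool. Krt6b read 41.2 and 8.00 in WT and 995 and 57.4 in TNFR KO tumours. Only its TNFR KO untreated pool was above the filter signal of 68.9. With the 2-fold rule all 5 were higher between untreated hosts, and 1 of 5 between irradiated hosts. Of all tested genes, 12.0% were higher and 18.9% lower over both treatments. The signal of the 3 probe sets for 18S ribosomal RNA was 1.77 times as high in TNFR KO as in WT untreated tumours and 2.79 times in irradiated ones, and irradiated over untreated it was 1.15 in WT and 1.81 in TNFR KO hosts. The collagen hydroxylases P4ha1 and Plod2 were lower in the host whose fibroblast sum was higher, while P4ha2 gave 0.18. Of the 11 tested fibroblast markers, 8 had a positive and 3 a negative host difference. The part of these cells, or of the 18S signal, in the host differences was not tested.

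The second comparison asked what 20 Gy did to these genes after 5 h. No member passed the test over both hosts, 0 of 36 in limma on the pool means. Of all tested genes 1.55% were higher and 0.353% lower. An unadjusted p under 0.05 was reached by 7 of 36 genes, and by 1888 of all 11344 tested genes. In each host alone 0 of 36 passed the 2-fold rule, against 2.25% higher and 0.203% lower in WT and 0.882% higher and 0.485% lower in TNFR KO hosts. An unadjusted p under 0.05 was reached by 23 of 36 genes in WT and 18 of 36 in TNFR KO hosts. Over all 11344 tested genes the counts were 4525 in WT and 4419 in TNFR KO hosts. Without the first WT untreated array, Slc2a1 passed in WT at a ratio of 2.12.

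Over both hosts, the irradiated arrays all lay above the untreated ones for 13 of the 36 genes and below them for 1 (36.1% and 2.78%, against 7.25% and 5.15% of all tested genes). These counts are of deposited signals, and 18 of the 36 differences over both hosts changed sign over the 4 scalings described below. The 1 gene whose irradiated arrays all lay below was Slc16a1, the lactate and pyruvate transporter MCT1. It read 2112 and 2478 in WT untreated, 1406 and 1492 in WT irradiated, 2394 and 2334 in TNFR KO untreated and 1317 and 1371 in TNFR KO irradiated tumours. The log2 difference was -0.65 ± 0.09 in WT, -0.81 ± 0.09 in TNFR KO and -0.73 ± 0.16 over both hosts, a ratio of 1.66 that missed the threshold narrowly (limma, adjusted p 0.0503). It passed with the arrays centred on the median (-0.87, limma adjusted p 0.0131) and with 4 other settings. Slc16a3, the hypoxia-induced lactate exporter MCT4, gave 0.07 in WT and 0.18 in TNFR KO hosts.

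Slc2a1, the glucose transporter GLUT1, had the largest difference in WT hosts. It read 4711 and 4079.7 in WT untreated, 8605 and 8703 in WT irradiated, 6927 and 6545 in TNFR KO untreated and 7497 and 7858 in TNFR KO irradiated tumours. The WT untreated pool stood low, and the other 3 pools lay within 6545 to 8703. The log2 difference was 0.98 ± 0.08 in WT, a ratio of 1.97 just under 2-fold (limma, adjusted p 0.00163), and 0.19 ± 0.08 in TNFR KO hosts. Its other probe sets, with mean signals of 4112 and 2102, gave 0.65 and 0.68 in WT and 0.18 and 0.15 in TNFR KO hosts. On each of its probe sets the WT irradiated arrays lay above all others. Slc2a3 gave 0.09 and -0.08.

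Egln3, the HIF prolyl hydroxylase PHD3 and a HIF target itself, read 283 and 267 in WT untreated, 555 and 514 in WT irradiated, 243 and 269.6 in TNFR KO untreated and 328 and 330.1 in TNFR KO irradiated tumours. The irradiated arrays were above the untreated ones in both hosts. The log2 difference was 0.92 ± 0.08 in WT and 0.34 ± 0.08 in TNFR KO hosts, and over both 0.63 ± 0.18 (limma, adjusted p 0.120). A second probe set gave 0.86 and 0.24. Egln1, the main oxygen sensor PHD2, gave 0.10 and -0.15.

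Several other targets shared this order of hosts without passing. Ndrg1 read 2262 and 2217 in WT untreated, 3845 and 3613 in WT irradiated, 4023 and 3928 in TNFR KO untreated and 4351 and 4389.6 in TNFR KO irradiated tumours, so only the WT untreated pool stood apart. Its log2 difference was 0.73 ± 0.06 in WT and 0.14 ± 0.06 in TNFR KO hosts. Of its other 4 probe sets, 3 gave the larger difference in WT hosts as well (0.45, 0.45 and 0.16, against 0.15, 0.12 and 0.06). The one with a mean signal of 2002 had the opposite order, 0.19 in WT and 0.31 in TNFR KO hosts. Higd1a, a mitochondrial hypoxia protein and the brightest gene outside glycolysis, read 12222 and 13113 in WT untreated, 18741 and 18174 in WT irradiated, 12235 and 12876 in TNFR KO untreated and 14239 and 14964 in TNFR KO irradiated tumours. That is 0.54 ± 0.07 in WT and 0.22 ± 0.07 in TNFR KO hosts. P4ha2 gave 0.65 and 0.33, and Ankrd37, a small ankyrin-repeat protein, 0.70 and 0.30. Vldlr gave 0.74 and -0.21, with duplicate arrays as far apart as 126 and 201 in the TNFR KO irradiated pool.

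For the other members, in WT and TNFR KO hosts in this order, Hif1a gave -0.07 and -0.20 and Kdm3a 0.05 and -0.04. Pdk1, the kinase that inhibits pyruvate dehydrogenase, gave -0.05 and -0.04. Adm, the vasodilator peptide adrenomedullin, gave 0.11 and 0.07, and Car9, the cell-surface carbonic anhydrase, 0.29 and 0.14. Mxi1, a MYC antagonist, gave 0.01 and 0.28, Kdm4b 0.18 and 0.34, Bnip3 0.34 and 0.10, and Aldoc, a second aldolase, 0.19 and -0.09 in the same order. Hk1 gave 0.33 and -0.06, Hk2 -0.03 and -0.16, Pfkp, another phosphofructokinase subunit, 0.29 and -0.22, and Plod2 0.26 and -0.11. Pfkfb3 gave 0.57 ± 0.11 and -0.42 ± 0.11. Epas1 gave 0.11 ± 0.07 and -0.66 ± 0.07, and P4ha1 0.09 ± 0.07 and -0.58 ± 0.07.

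**Figure D4:**
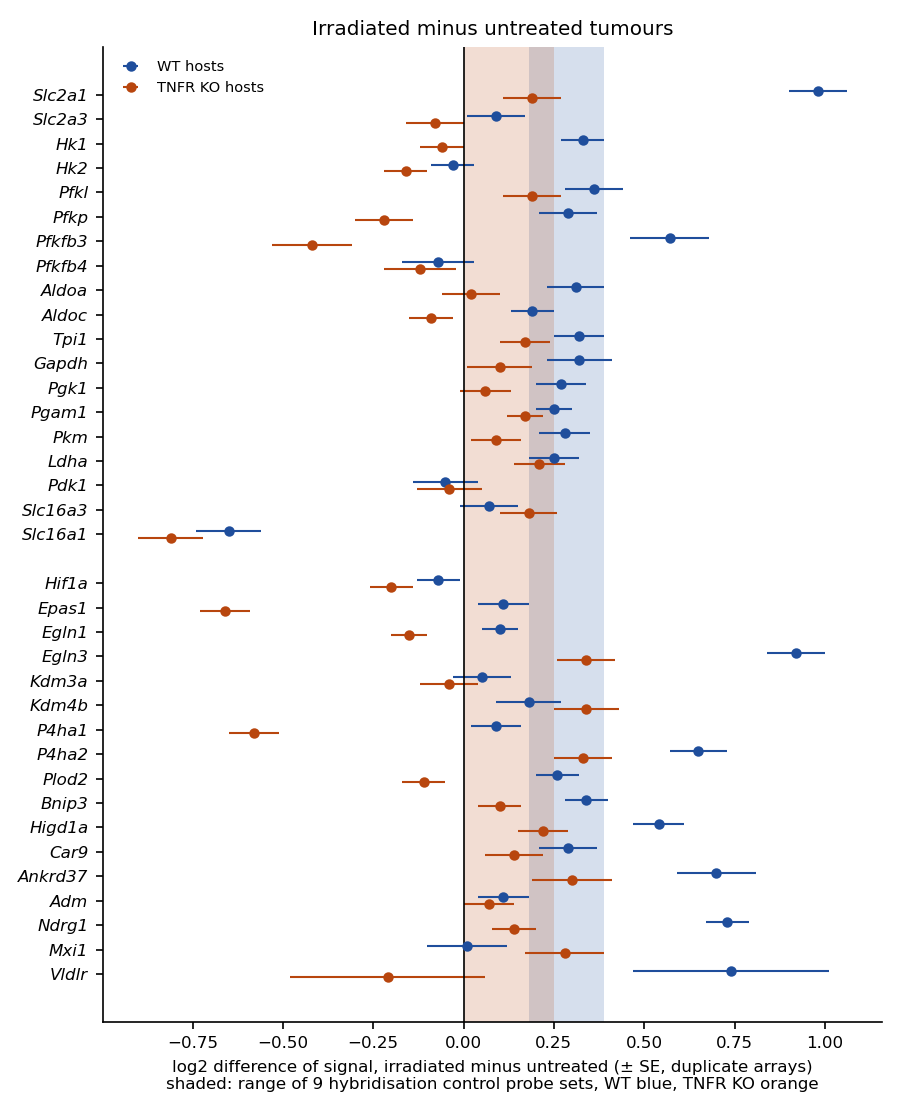
Log2 difference of signal between irradiated and untreated tumours for each gene, with the standard error from duplicate arrays, in WT (blue) and TNFR KO (orange) hosts, over shaded ranges of the 9 hybridisation controls (0.18 to 0.39 in WT, 0 to 0.25 in TNFR KO). Of the 19 glycolysis genes, 11 lie within the shaded range in WT and 10 in TNFR KO hosts, and the direction of such differences depends on the scaling. Slc2a1, Egln3 and Ndrg1 lie above it in WT hosts and Slc16a1 below it in both.

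The bright glycolytic enzymes had higher deposited signals after irradiation in WT hosts, and the array's own controls had them too. With no fold threshold, 20 of 36 genes were higher and 1 lower in WT irradiated tumours (55.6% and 2.78%, against 12.2% and 13.4% of all tested genes), and 3 were higher and 4 lower in TNFR KO irradiated tumours (8.33% and 11.1%, against 9.43% and 14.4%). Gapdh, for example, read 29213 and 32069 in WT untreated, 40431 and 36206 in WT irradiated, 31246 and 33875 in TNFR KO untreated and 35999.6 and 33992 in TNFR KO irradiated tumours. The irradiated arrays were above the untreated ones in both hosts, by 0.32 ± 0.09 in WT and 0.10 ± 0.09 in TNFR KO hosts. The 9 bacterial and phage hybridisation controls, which are added after labelling and carry no tumour RNA, gave 0.18 to 0.39 in WT (mean 0.29) and 0 to 0.25 in TNFR KO hosts (mean 0.16). Of the 36 genes, 15 lay within the control range in WT, 8 above it and 13 below it. Of the 8, Slc2a1 and Pfkfb3 were glycolysis genes and 6 were others, Egln3, Vldlr, Ndrg1, Ankrd37, P4ha2 and Higd1a.

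For the brightest genes the direction depended on the scaling. The 9 genes with a mean signal of at least 10000 had a median WT difference of 0.31 (0.25 to 0.54) as deposited, 0.01 (-0.04 to 0.36) after quantile normalization, 0.06 after centring arrays on the median and 0.02 after scaling to the hybridisation controls. Higd1a, 1 of the 9, kept 0.36 after quantile normalization. Centring on the median moved the median of all tested genes in WT from -0.02 to -0.28, and scaling to the controls moved it to -0.32. Over these 4 scalings, 13 of 36 genes were positive under each in WT hosts, 5 negative under each and 18 changed sign. For radiation over both hosts, 10 were positive under each, 8 negative under each and 18 changed sign. The median of the 36 genes over both hosts was 0.16 as deposited and 0.06 after quantile normalization. It was 0.01 after centring on the median and -0.07 after scaling to the controls.

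**Figure D5:**
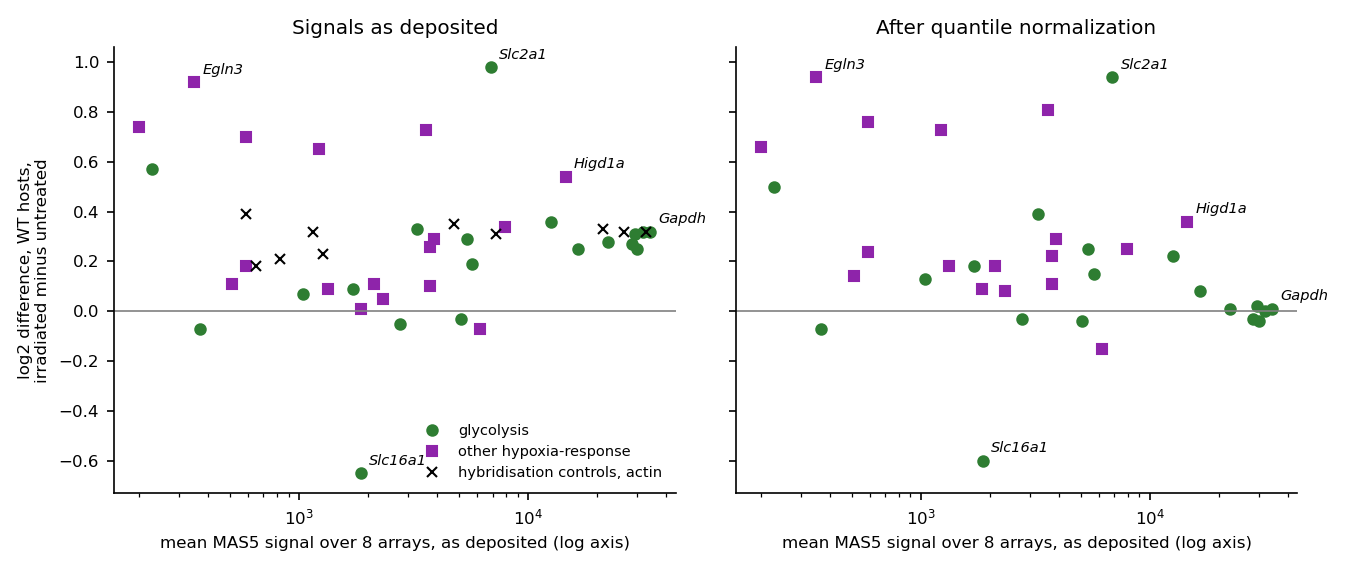
Log2 difference between irradiated and untreated tumours in WT hosts against mean signal over 8 arrays (log axis) for glycolysis genes (circles), other hypoxia-response genes (squares) and the hybridisation controls and actin (crosses, left panel only). As deposited, the brightest genes gather near the controls at about 0.3, and after quantile normalization the same genes gather near 0 while Slc2a1, Egln3 and Slc16a1 keep their places.

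The third comparison asked whether irradiation acted differently in the 2 hosts, by the difference of the log2 effects (TNFR KO minus WT) in limma on the 8 arrays. None of the 36 genes passed with the 2-fold rule (0.159% of all tested genes were higher and 2.05% lower). An unadjusted p under 0.05 was reached by 17 of 36 genes, and by 3272 of all 11344 tested genes. Without the fold threshold 9 genes were lower and 0 higher, 25.0% of 36, against 6.04% lower and 3.52% higher of all tested genes. These were Pfkfb3, Slc2a1, Epas1, P4ha1, Ndrg1, Egln3, Pfkp, Hk1 and Plod2. Other probe sets of Epas1, Pfkfb3, Plod2 and Ndrg1 did not all show such a difference, as given below. The largest, Pfkfb3 at -0.99 ± 0.16 (limma, adjusted p 0.0217), rested on signals of 167 to 292, and passed 2-fold at -1.11 without the first WT untreated array. The difference was negative for 32 of the 36 genes, with a median of -0.21, against -0.01 for all tested genes. Under each of the 4 scalings 17 were negative and 3 positive, and 16 changed sign. The 9 genes stayed negative under each, but with arrays centred on the median Plod2 gave -0.14, Hk1 -0.17, Pfkp -0.28, Egln3 -0.35 and Ndrg1 -0.37, in place of -0.37, -0.39, -0.51, -0.58 and -0.59.

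The pools behind these differences were of different kinds, as read on the brightest probe set of each gene. For Slc2a1, Ndrg1 and Hk1 the WT untreated pool was the low one: Hk1 read 2438 and 2474 there and 3023 to 3886 on the other 6 arrays. On the other probe sets of Slc2a1 the WT irradiated pool stood apart as well. They read 5161 and 5005, then 2538 and 2802, in that pool, and at most 4331 and 2145.5 on the other arrays. For Egln3 the WT irradiated pool was the high one. For Epas1 the TNFR KO untreated pool was the high one, and for P4ha1 the TNFR KO irradiated pool was the low one.

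Host cell markers moved between the same pools. By the same difference of radiation effects with the 2-fold rule, 10 of 11 tested macrophage markers, 7 of 11 fibroblast markers and 3 of 5 neutrophil markers were lower, and 3 of 4 erythroid markers higher. The 9 neutrophil markers read on the array summed to 3895 in WT untreated, 24060 in WT irradiated, 1170 in TNFR KO untreated and 1344 in TNFR KO irradiated tumours, all 5 tested markers being higher after irradiation in WT and 0 in TNFR KO hosts, with 3 of the 9 below the filter in every pool. Macrophage sums were 9164, 18306, 18283 and 12347 in the same order, with 3 of 11 tested markers higher after irradiation in WT and 1 lower in TNFR KO hosts. Fibroblast sums were 9972, 13502, 23828 and 17739. Erythroid sums were 677, 2024, 730 and 4919. Muscle sums fell in both hosts, with 6 of 9 tested markers lower over both. Muscle and myeloid cells express glycolytic genes as well, and their part in the values above was not tested.

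Further genes of the pathway were read from lists of regulators and targets. The lists were chosen with earlier results of these data known, so their shares and medians are no independent test. Of 34 tested further hypoxia targets, 4 rose after irradiation over both hosts and 0 fell (11.8%, against 1.90% of all tested genes in either direction), with a median of 0.21 against -0.02. They were Pgf, placental growth factor (1.23 ± 0.21, limma adjusted p 0.0148), Hmox1, haem oxygenase 1, which is also a target of the NRF2 oxidative stress factor (1.17 ± 0.17, limma adjusted p 0.00534), Angptl4, an inhibitor of lipoprotein lipase (1.15 ± 0.23, limma adjusted p 0.0368), and Hilpda, a lipid droplet protein (0.78 ± 0.16, limma adjusted p 0.0401). Pool means of Angptl4 were 202 and 693 in WT and 436 and 672 in TNFR KO tumours, and those of Hilpda 1574 and 2668, then 1688 and 2944. Among 24 further glycolysis and pyruvate genes, Eno2, an enolase isoenzyme and HIF target, rose by 0.93 ± 0.16 (limma, adjusted p 0.0161). Its pool means were 425 untreated and 845 irradiated in WT, then 519 and 978 in TNFR KO tumours, and the median of the list was 0.01. The 4 calls became 0 without either WT untreated array, the first WT irradiated, either TNFR KO untreated or the second TNFR KO irradiated array, 1 (Hmox1) without the first TNFR KO irradiated array and 2 (Hmox1 and Pgf) without the second WT irradiated array, and Eno2 passed without the last of these only. Over all tested genes the 216 calls likewise became 0 to 117, with 0 without the first WT untreated array. Quantile normalization (12 calls over all genes), scaling to the hybridisation controls (48) and no filter (0) also left none of the 5 genes. None of 14 HIF pathway regulators and none of 7 pentose phosphate genes passed over both hosts.

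Between hosts, 2 of the 34 further targets were higher and 9 lower in TNFR KO tumours (32.4%, against 30.9% of all tested genes). Gbe1, the glycogen branching enzyme (-1.18 ± 0.17), Ddit4, the mTORC1 inhibitor REDD1 (-1.07 ± 0.17), Wsb1, a ubiquitin ligase subunit (-0.93 ± 0.16), and Kdm4c, a histone demethylase (-0.91 ± 0.16), differed most, and Cxcr4, a chemokine receptor (0.82 ± 0.23), and Car12, a carbonic anhydrase (0.53 ± 0.16), which were named after their values were seen, were higher. Of 14 HIF regulators, Hif1an, the asparagine hydroxylase that blocks HIF's co-activator binding, was higher (0.58 ± 0.18), and Cul2, the scaffold of the von Hippel-Lindau ligase (-1.27 ± 0.16), Siah1a (-0.69 ± 0.19) and Eloc, another subunit of that ligase (-0.53 ± 0.16), were lower. Cul2 means were 968 and 829 in WT and 383 and 348 in TNFR KO tumours. Of 24 glycolysis and pyruvate genes 4 were lower and 2 higher. Dld (-1.16), Pdha1 (-0.77) and Dlat (-0.55) encode subunits of the pyruvate dehydrogenase complex and Pdp1 (-0.77) its phosphatase, while Slc2a4 (0.60) encodes the glucose transporter GLUT4. Dlat was named after its value was seen, as was Adpgk (0.55), an ADP-dependent glucokinase. Of 7 pentose phosphate genes, H6pd (0.81) and Pgd (0.60) were higher and Rpe (-1.05) lower. These shares, 28.6%, 25.0% and 42.9%, lie around the 30.9% of all tested genes.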

How the data were processed

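Whole-tumour RNA of 4 groups was pooled by group and read in technical duplicate on 8 Affymetrix Mouse Genome 430 2.0 arrays. The deposited values are linear MAS5 signal intensity made by the authors (MAS5 is named in the submitters' processing notes, version not given in the sources used here), and their 2%-trimmed mean is 500.0 on each array. Signals were analysed as log2(signal + 16) in R 4.3.3 with limma 3.58.1, and drawn with matplotlib 3.10.9. Of 45101 probe sets, 51 were controls, and of the others 34958 named 1 gene, 932 several and 9160 none. Genes were tested where their log2 signal, averaged over arrays, was at or above the median probe set (6.41, a signal of 68.9, controls left out), which 11344 were, and p-values were adjusted over all of them.

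Host and radiation were fitted on the 4 pool means (1 residual and 9.51 prior degrees of freedom). Single-pool comparisons were fitted on the 8 arrays (4 residual degrees of freedom) and needed a 2-fold difference. Log2 differences of dim genes depend on the pseudocount. Tests were two-sided and were tested on simulated data. The number of arrays limits the precision.

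Members and lists were chosen with earlier results of these data known. Every member was accounted for. Members printed in full were those called at pool level or in a single-pool comparison, the brightest of each role, and others with large differences, the last chosen after values were seen. Of other lists, up to 4 called genes per comparison were named, with exceptions stated. Alternatives were 3 other scalings, 1 of them (to the hybridisation controls) chosen after seeing the data, pseudocounts of 1 and 64, other filters and fold thresholds, the mean of probe sets, an intensity trend, a replicate block and leaving out each array. Promoter windows are RefSeq's, build GRCm38.p6.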

Additional observations from a re-analysis of the deposited data

Results flagged for a closer look

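For 9 genes the effect of irradiation differed between the hosts by the test of the difference itself (limma on the 8 arrays, adjusted p under 0.05, with no fold threshold). The log2 effect in TNFR KO minus that in WT hosts was -0.99 for Pfkfb3, -0.79 for Slc2a1, -0.77 for Epas1, -0.67 for P4ha1, -0.59 for Ndrg1, -0.58 for Egln3, -0.51 for Pfkp, -0.39 for Hk1 and -0.37 for Plod2. Centring arrays on the median brought these to -0.76, -0.56, -0.54, -0.45, -0.37, -0.35, -0.28, -0.17 and -0.14, in the same order of genes. These values are of the brightest probe sets. A second probe set of Epas1 (mean signal 82.0) had the opposite order, -0.48 in WT and -0.10 in TNFR KO hosts. That of Plod2 (1844) gave 0.01 and -0.05. That of Pfkfb3, below the filter (59.1), gave -0.59 and 0.68, and 1 of Ndrg1 (2002) 0.19 and 0.31. Other probe sets of Slc2a1, P4ha1, Egln3, Hk1 and Pfkp kept the lower value in TNFR KO hosts. The error of this test is the spread of duplicate arrays of single pools, so it holds no variation between animals or pools. Pfkp read 4889 and 5143 in WT untreated, 5892 and 6394 in WT irradiated, 5879 and 5354 in TNFR KO untreated and 4797 and 4834 in TNFR KO irradiated tumours. All 9 differences share the WT and TNFR KO pools, so they are not independent of each other.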

How the results depend on the processing

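With 1 pool per group, no alternative can show variation between animals. Over both treatments, 2 genes were higher and 4 lower in TNFR KO tumours. The higher count became 1 with quantile normalization or a pseudocount of 1, 0 with arrays centred on the median, with no filter or with a 2-fold threshold, 5 with a pseudocount of 64, 4 with a filter at the 75th percentile or the mean of probe sets, 6 with an intensity trend, and 1 to 1 without any array. The lower count became 0 with no filter, 1 with a 2-fold threshold, 3 with quantile normalization, a pseudocount of 1, hybridisation-control scaling or any 1 array left out, and 5 with a pseudocount of 64, an intensity trend, the mean of probe sets or the 75th-percentile filter; it was 4 with arrays centred on the median. For radiation over both hosts, 0 genes were higher and 0 lower. The counts became 2 and 1 with a pseudocount of 64, 1 and 1 with a filter at the 75th percentile and 5 and 1 with an intensity trend, and the lower count was 1 with arrays centred on the median. Without the 2-fold threshold, single-pool counts (higher, lower) became 20 and 1 for radiation in WT, 3 and 4 for radiation in TNFR KO, 9 and 5 between untreated hosts, 5 and 12 between irradiated hosts and 0 and 9 for the difference of radiation effects. Between untreated hosts 2 genes (Kdm3a and Plod2) were lower with arrays centred on the median, and for the difference of radiation effects 1 (Pfkfb3) was lower with a pseudocount of 1. Leaving out single arrays gave 0 to 1 genes higher for radiation in WT, 1 to 2 lower between irradiated hosts and 0 to 1 lower for the difference of radiation effects. None of the 6 host calls over both treatments, nor that of Plod2 between irradiated hosts, reversed. Uncalled differences did: over 4 scalings, 18 of 36 changed sign for radiation in WT. Plod2 kept its call in 18 of 19 alternatives over both treatments and in 19 of 19 between irradiated hosts, Hif1a and Kdm3a in 17, Pfkfb4 in 15 of 18, and P4ha1 and Slc2a3 in 6. The causes were not tested, beyond the fewer or more genes tested under other filters.

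Array numbers do not pair the samples: deviations of same-numbered arrays correlated at -0.01 to 0.012 over 6 pairs of pools. A fit of the 8 arrays with the number as a replicate block counts duplicates as if they were separate samples. It gave 6 genes higher and 7 lower between hosts, and 4 higher and 1 lower after irradiation over both hosts.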
